A study of Mus musculus with 21 samples.

Results

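Gpr179, Cdh19, Cdh12, C6, Gnat3, Slc40a1, Asb12 and Pnpt1 are 8 of the 24495 gene rows counted by RNA-seq in male germ cells of Tex15 mutant mice. They were chosen by their fitted fold changes and calls in KO against HT at E18.5 and in KO against HT and WT at D2.5, so the values of those ages describe the choice and carry no p here, and only E16.5, an age the choice did not use, is tested. Germ cells were sorted by the fluorescence of an Oct4-GFP reporter from testes of embryos and pups of a mixed strain background, all from matings between Tex15 heterozygotes. There were 7 groups of 3 libraries. Tex15 knockout (KO) and heterozygous (HT) cells were taken on embryonic days E16.5 and E18.5 and, just after birth, at D2.5, when wild-type (WT) cells were taken as well. At E16.5 and E18.5 the control is therefore always heterozygous, and the labels do not say how many animals made a library. Every group carries the same GFP selection, and the labels describe the knockout only as Tex15KO.

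Fetal male germ cells stop dividing before birth, erase and then rebuild their DNA methylation, and silence transposable elements as the new methylation is laid down. TEX15 is a germ cell protein needed for male fertility that works with the piRNA pathway, in which small RNAs guide the silencing and methylation of transposons in these cells. The 8 genes are best known from other tissues. A pair of receptor signalling proteins, a pair of cell adhesion cadherins, a blood complement protein, an iron exporter, a ubiquitin ligase receptor and a mitochondrial RNA nuclease make up the set.

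The targeted gene followed its labels. Tex15 stood at 976 ± 81.8 CPM (SD, n = 3) in HT and 3.39 ± 0.436 in KO at E16.5, and at 781 ± 34.9 and 3.03 ± 0.193 at E18.5. At D2.5 it stood at 4042 ± 436 in WT, 1877 ± 178 in HT and 20.9 ± 4.33 in KO. CPM is the count scaled to the library's gene total times its TMM factor. Libraries held 6063632 to 11884109 gene counts, and 3 counts equalled 0.224 to 0.556 CPM. Germ cell markers were present in every group, with group means of 353 to 815 CPM for Ddx4 and 532 to 4050 CPM for Dazl, both germ cell RNA-binding proteins. Pou5f1, the gene behind the Oct4-GFP reporter, fell from 98.7 CPM in HT to 56.3 in KO at E18.5 (log2 difference -0.81, adjusted p = 0.0307 in edgeR). Leaving out KO replicate 1, KO replicate 3, HT replicate 2 or HT replicate 3 ended that call, with adjusted p-values of 0.0679 to 0.19. Kit, the receptor of stem cell factor and also among the 16 germ cell markers, rose from 65.5 to 103 CPM at that age (0.65, adjusted p = 0.0201), and its call was lost when any 1 library other than KO replicate 1 was left out (0.0643 to 0.113). Pou5f1 stood at 1.35, 1.48 and 4.61 CPM in WT, HT and KO at D2.5. In such bulk libraries, fewer cells of a type and less RNA per cell cannot be told apart.

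The DNA before the annotated start sites of the 8 genes was read, and 6 of the 8 matched a RefSeq promoter entry (build GRCm38.p6). The 250 bases upstream of Gpr179 (chr11:97352357-97352606, minus strand) and of Asb12 (chrX:95478130-95478379, minus strand) are shown because their HT levels were the lowest of the 6 at D2.5. They run 5′ to 3′, with each CG pair, the letters that DNA methylation acts on, in capitals.
Gpr179: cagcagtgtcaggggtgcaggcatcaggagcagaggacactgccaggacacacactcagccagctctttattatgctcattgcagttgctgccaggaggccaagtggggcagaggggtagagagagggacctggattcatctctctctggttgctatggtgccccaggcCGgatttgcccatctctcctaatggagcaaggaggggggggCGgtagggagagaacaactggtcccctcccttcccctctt
Asb12: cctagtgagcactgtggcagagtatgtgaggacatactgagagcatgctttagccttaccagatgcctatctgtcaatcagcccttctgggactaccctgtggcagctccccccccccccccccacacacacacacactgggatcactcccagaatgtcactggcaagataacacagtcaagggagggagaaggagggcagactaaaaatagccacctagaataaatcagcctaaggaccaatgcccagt

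Both windows are poor in CG. The upstream window held 2 CG pairs in Gpr179 and 0 in Asb12, and as few or fewer occurred in 29% and 7.87% of 32851 promoter windows of the same length. The other windows held 2 pairs in Gnat3, 4 in C6, 7 in Cdh12 and 12 in Pnpt1. The median was 3 over the 6 windows and 6 over all promoters. By the GENCODE annotation of the same build, the windows of Cdh12, C6 and Gnat3 overlap exons of the same gene (2, 1 and 1 exon records). Those windows may thus be partly transcribed. The windows of Gpr179, Asb12 and Pnpt1 held 0 exon records. The motif TATAAA was searched on both strands; it lies in 12.4% of all windows and in none of these 6.

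**Figure D1:**
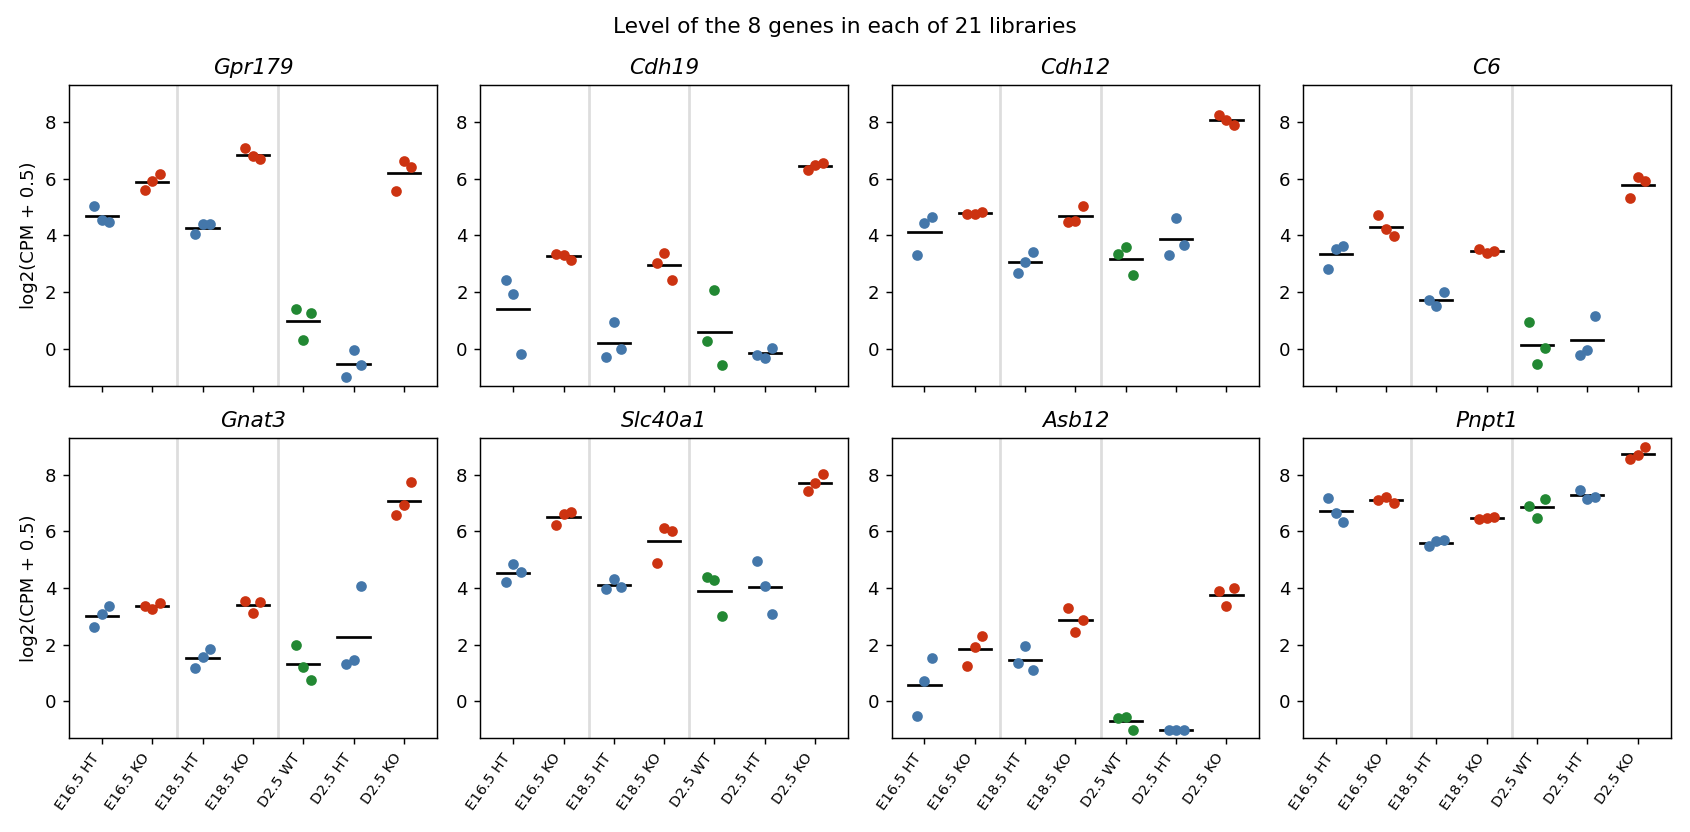
Level of each gene in each of the 21 libraries, as log2 of CPM plus 0.5, by age and genotype (HT blue, WT green, KO red); points are libraries and bars are group means of the plotted values. At E18.5 and D2.5 all 3 KO libraries of each gene lie above all control libraries of that age, as they do in 8.18% of all genes tested against HT at E18.5 and in 5.83% and 6.41% against HT and WT at D2.5, and in Gpr179 the highest KO level is at E18.5 rather than D2.5.

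Gpr179 encodes an orphan receptor that anchors the signalling complex of retinal ON-bipolar cells, the neurons that respond when light comes on. At E16.5 its HT libraries held 31.9, 22.5 and 21.8 CPM and its KO libraries 47.4, 60.0 and 71.1. At E18.5 the values were 15.9, 20.4 and 20.5 in HT and 134, 109.9 and 102 in KO. At D2.5 they were 2.12, 0.736 and 1.88 in WT, 0, 0.457 and 0.172 in HT, and 46.1, 97.7 and 83.5 in KO. At every age each KO library was above each control library of that age. The controls and the knockout took different courses: HT was at 25.4 and 18.9 CPM in the fetus and at 0.210 after birth, while KO went from 59.5 to 115 and then 75.8. The log2 difference between KO and HT was 2.60 (SE 0.17) at E18.5 and 8.28 (SE 0.74) at D2.5, and that between KO and WT at D2.5 was 5.56 (SE 0.61). The HT libraries of D2.5 held 4 Gpr179 counts in all against 1235 in KO, a ratio of levels of 338 with a 95% counting interval of 132 to 1241. Leaving out HT replicate 2, which held 3 of these 4 counts, moved the fitted log2 difference to 9.43.

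The rest of ON-bipolar receptor signalling was read beside the background of all genes. Between KO and HT, 0%, 2.07% and 0.146% of all genes tested were called higher at E16.5, E18.5 and then D2.5, and 1.17%, 8.12% and 7.21% had an unadjusted p under 0.05, so a list of about 20 genes with 0 called lies near this background. Of 17 further genes in the ON-bipolar list, 13, 15 and 11 were tested between KO and HT at the 3 ages in turn, and 0 passed an adjusted p of 0.05 in edgeR at any of these ages; at an unadjusted p under 0.05 the counts were 0, 2 and 0. The list's median log2 difference was 0.29, -0.00 and -0.58, beside -0.01, -0.00 and -0.00 over all genes tested. Gpr158, the closest relative of Gpr179, stood at 4.94 CPM in HT and 9.09 in KO at E18.5 (log2 difference 0.89, SE 0.26, adjusted p = 0.146 in edgeR). Gnao1, the G protein alpha subunit of these neurons, stood at 171 and 172 CPM.

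Gnat3 encodes the alpha subunit of gustducin, the G protein of taste receptor cells. Its HT libraries held 5.69, 7.97 and 9.79 CPM at E16.5 and its KO libraries 9.76, 9.20 and 10.5, so the groups overlapped. At E18.5 they held 1.74, 2.46 and 3.13 in HT and 11.1, 8.30 and 10.9 in KO. At D2.5 they held 3.53, 1.84 and 1.20 in WT, 2.00, 2.29 and 16.3 in HT, and 93.8, 122 and 214 in KO. The third HT library of D2.5 stood apart from the others, yet below every KO library. The log2 difference between KO and HT was 2.02 (SE 0.27) at E18.5 and 4.37 (SE 0.62) at D2.5, the latter 6.05 without HT replicate 3. Against WT it was 6.02 (SE 0.69). The step in the KO between E18.5 and D2.5 was from 10.1 to 143 CPM.

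Of 18 further taste transduction genes, 12, 15 and 9 were tested at the 3 ages and 0 passed the adjusted threshold in edgeR; 1, 1 and 0 had an unadjusted p under 0.05. Their median log2 difference was -0.04, -0.00 and -0.05. Tas1r2, part of the sweet taste receptor, stood at 1.05 CPM in HT and 2.90 in KO at E18.5 (adjusted p = 0.0976). Gnb1, a G protein beta subunit of many cells, stood at 835 and 899 CPM at that age.

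Cdh19 encodes a type II cadherin known from Schwann cell precursors. At E16.5 it was at 4.83, 3.27 and 0.384 CPM in HT and 9.67, 9.45 and 8.21 in KO. At E18.5 it was at 0.308, 1.42 and 0.481 in HT and 7.60, 9.75 and 4.88 in KO. At D2.5 it was at 0.705, 3.68 and 0.171 in WT, 0.363, 0.305 and 0.515 in HT, and 78.0, 89.3 and 92.7 in KO. KO and control libraries did not overlap at any age, and the KO level of D2.5 was far above its own fetal levels. The log2 difference between KO and HT was 3.25 (SE 0.45) at E18.5, or 4.15 without HT replicate 2, and 7.71 (SE 0.76) at D2.5. In counts, the D2.5 libraries held 7 in HT and 1417 in KO, a ratio of levels of 221 (95% counting interval 107 to 552). Against WT the log2 difference was 5.82 (SE 0.67), or 7.58 without WT replicate 2.

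Schwann cell and neural crest markers give the level of the cells in which Cdh19 is best known. Their sum over 15 genes ran from 166 to 174 CPM in HT and 141 to 155 in KO at E18.5, so it was lower where Cdh19 was higher. At D2.5 it ran from 179 to 219 in WT, 160 to 255 in HT and 252 to 341 in KO. Sox10, which defines these cells, stood at 5.07 CPM in HT and 3.32 in KO at E18.5, and at 0.173, 0.853 and 2.40 in WT, HT and KO at D2.5. None of the 10, 15 and 9 markers tested at E16.5, E18.5 and then D2.5 passed the adjusted threshold between KO and HT in edgeR, with 0, 2 and 2 at an unadjusted p under 0.05. The part of such cells in the D2.5 level of Cdh19 was not tested.

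Cdh12 encodes a type II cadherin of the brain. Its libraries held 9.36, 21.2 and 24.7 CPM in HT and 26.3, 26.7 and 28.0 in KO at E16.5. At E18.5 they held 5.85, 7.91 and 10.03 in HT and 21.6, 22.03 and 32.4 in KO. At D2.5 they held 9.69, 11.4 and 5.48 in WT, 9.25, 24.1 and 12.2 in HT, and 304, 264 and 236 in KO. KO lay above the controls at each age, by a narrow margin at E16.5. KO differed from HT by a log2 value of 1.66 (SE 0.23) at E18.5 and 4.12 (SE 0.36) at D2.5, and from WT by 4.91 (SE 0.38). The gene model of Cdh12 overlaps that of Acot10, a mitochondrial thioesterase, which stood at 5.43 CPM in HT and 5.40 in KO at E18.5 and at 4.13 and 4.16 at D2.5.

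The count of other cadherins and catenins called was near that of all genes. Of 25 further genes of that family, 22, 25 and 21 were tested at the 3 ages in turn and 0 passed the adjusted threshold in edgeR, with 0, 2 and 1 at an unadjusted p under 0.05. At E18.5, 20 of the 25 fitted differences were above 0, with a median of 0.24 beside -0.00 over all genes; at E16.5 and D2.5 the medians were -0.07 and -0.01. Ctnnb1, the beta-catenin that links cadherins to the cytoskeleton, stood at 662 CPM in HT and 683 in KO at E18.5. Cdh11, a type II cadherin of mesenchyme, stood at 34.3 CPM in HT and 41.8 in KO at D2.5 (adjusted p = 0.948), and at 19.0 in WT (0.527 against KO).

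C6 encodes a plasma protein that joins the membrane attack complex of complement. At E16.5 it was at 6.56, 11.1 and 11.8 CPM in HT and 25.8, 18.1 and 15.4 in KO. At E18.5 it was at 2.77, 2.31 and 3.45 in HT and 10.9, 9.75 and 10.4 in KO. At D2.5 it was at 1.41, 0.184 and 0.514 in WT, 0.363, 0.457 and 1.72 in HT, and 39.1, 66.5 and 60.2 in KO. The control level went down with age, from 9.81 to 2.85 to 0.846 CPM in HT, while the KO level dipped at E18.5 and was highest after birth. Libraries of KO and control did not overlap at any age. The log2 difference between KO and HT was 1.86 (SE 0.25) at E18.5 and 5.99 (SE 0.73) at D2.5, the latter 6.996 without HT replicate 3. Between KO and WT it was 6.25 (SE 0.75), or 7.22 without WT replicate 1.

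Among 17 further complement genes, 1 of 17 tested at E18.5 rose: C8a, another component of the membrane attack complex, went from 5.74 to 15.7 CPM (log2 difference 1.45, SE 0.23, adjusted p = 0.00205 in edgeR). In that comparison 2.07% of all genes tested were called higher. C8a stood at 10.1 CPM in HT and 14.4 in KO at D2.5 (adjusted p = 0.939). C7, which acts between C6 and C8 in the complex, stood at 17.0 and 21.4 CPM at E18.5 (adjusted p = 0.877) and at 3.34 and 0.920 CPM at D2.5 (adjusted p = 0.859). At E16.5 and D2.5, 0 of 16 and 0 of 14 passed, with 0 and 1 at an unadjusted p under 0.05. The median log2 difference of the list was 0.40, -0.08 and -0.11 over the 3 ages.

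Slc40a1 encodes ferroportin, the known iron exporter of vertebrate cells. Its libraries held 17.95, 28.4 and 23.2 CPM in HT and 74.5, 97.9 and 101 in KO at E16.5. At E18.5 they held 15.1, 19.6 and 15.9 in HT and 28.7, 69.2 and 63.9 in KO. At D2.5 they held 20.4, 18.9 and 7.53 in WT, 30.3, 16.3 and 8.08 in HT, and 171, 208 and 258 in KO. No KO library overlapped a control library of its age, and KO replicate 1 of E18.5 was the lowest of all KO libraries. Control levels stayed within 7.53 to 30.3 CPM across the 12 HT and WT libraries. The log2 difference between KO and HT was 1.68 (SE 0.27) at E18.5 and 3.55 (SE 0.42) at D2.5, and between KO and WT 3.75 (SE 0.43).

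Macrophages also carry much ferroportin, and their markers moved in part with it. At E18.5 the sum of 20 macrophage and blood markers ran from 99.0 to 108 CPM in HT and 129 to 162 in KO. Mrc1, the mannose receptor of macrophages, rose from 14.4 to 51.0 CPM (log2 difference 1.82, adjusted p = 6.27e-05 in edgeR) and Adgre1, the F4/80 antigen, from 3.11 to 8.40 (1.43, adjusted p = 0.00883). The other 11 markers tested did not pass, and the call of Adgre1 was lost on leaving out KO replicate 3, HT replicate 2 or HT replicate 3 (adjusted p of 0.0521 to 0.0607). At E16.5 and D2.5, 0 of 11 and 0 of 6 passed, with 0 and 0 at an unadjusted p under 0.05. At E16.5 all 11 fitted differences were above 0, with a median of 0.65, and Mrc1 stood at 4.50 CPM in HT and 16.3 in KO. The sum ran from 32.8 to 77.0 in HT and 64.0 to 119 in KO at E16.5, with C1qb at 0 in HT, and from 96.2 to 124 in WT, 123 to 145 in HT and 90.5 to 191 in KO at D2.5. C1qa and Tyrobp were at 0 in all D2.5 libraries, and Mrc1 stood at 30.7, 53.0 and 44.6 CPM in WT, HT and KO. In the same order Cx3cr1 stood at 0.807, 0.502 and 5.58 CPM, Laptm5 at 0.0571, 0.726 and 3.83, and C1qc at 0, 0 and 2.15. Alas2 stood at 14.1, 14.5 and 8.14 CPM and Cd68 at 23.2, 26.0 and 23.1. Of the 6 markers tested at D2.5, 2 had fitted differences above 0 against HT, with a median of -0.10. Against WT it was 4 of the 6, with a median of 0.16. The part of macrophages in the level of Slc40a1 was not tested at any age.

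Of 25 further genes of iron handling, 23, 23 and 21 were tested at these ages and 0 passed the adjusted threshold in edgeR, with 0, 1 and 1 at an unadjusted p under 0.05. Their medians were -0.09, 0.00 and -0.06. Fth1, a subunit of the iron store ferritin, stood at 307 CPM in HT and 301 in KO at E18.5. Tfrc, the transferrin receptor through which cells take up iron, stood at 369.9 and 306 CPM at D2.5. Heph, a ferroxidase that works with ferroportin, stood at 5.24 and 7.86 CPM at E18.5 (adjusted p = 0.461).

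Asb12 encodes an ankyrin repeat protein with a SOCS box, the part through which such proteins bring substrates to a ubiquitin ligase. It was at 0.193, 1.15 and 2.40 CPM in HT and 1.90, 3.32 and 4.49 in KO at E16.5, where the groups overlapped. At E18.5 it was at 2.05, 3.36 and 1.68 in HT and 9.35, 4.96 and 6.76 in KO. At D2.5 its counts were 1, 1 and 0 in WT, 0 in all 3 HT libraries, and 80, 53 and 84 in KO. The KO libraries of D2.5 held 14.4, 9.82 and 15.5 CPM. Their mean was at least 26.2-fold higher than the mean HT level would be with 3 counts in each HT library. Against the 2 counts of WT, the 217 counts of KO gave a ratio of levels of 112 (95% counting interval 30.7 to 934). The fitted log2 difference was 1.55 (SE 0.33) at E18.5 and 6.55 (SE 1.30) between KO and WT at D2.5. Its E18.5 call was lost on leaving out KO replicate 1, KO replicate 3, HT replicate 1 or HT replicate 3, that against HT at D2.5 without HT replicate 2, and that against WT without any 1 of the KO or WT libraries.

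Of 21 further genes of the Asb family and its ligase, 17, 19 and 15 were tested and 0 passed the adjusted threshold in edgeR at any age, with 0, 0 and 1 at an unadjusted p under 0.05. The medians were -0.15, -0.02 and 0.01. Asb7, the most abundant family member at E18.5, stood at 156 CPM in HT and 143 in KO. Cul5, the cullin of the ligase, stood at 99.4 and 108 CPM.

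Pnpt1 encodes polynucleotide phosphorylase, a mitochondrial exonuclease that degrades RNA and limits the release of mitochondrial double-stranded RNA. Its controls were never near 0, at 43.7 CPM or more in every library. Its libraries held 143, 99.0 and 79.6 CPM in HT and 138, 148 and 126 in KO at E16.5. At E18.5 they held 43.7, 49.9 and 51.3 in HT and 85.6, 88.8 and 90.9 in KO. At D2.5 they held 119.9, 88.8 and 142 in WT, 176, 141 and 149 in HT, and 375, 409 and 506 in KO. KO and control overlapped at E16.5 and were apart at both later ages. On the log2 scale KO was above HT by 0.87 (SE 0.14) at E18.5 and 1.47 (SE 0.21) at D2.5, and above WT by 1.88 (SE 0.21). In KO and HT alike the level was lowest at E18.5.

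Of 23 further genes of mitochondrial RNA processing and decay, 23, 23 and 21 were tested and 0 passed the adjusted threshold in edgeR, with 0, 0 and 1 at an unadjusted p under 0.05. The medians were -0.12, -0.01 and 0.11. Supv3l1, the helicase that forms a complex with polynucleotide phosphorylase, stood at 19.3 CPM in HT and 18.4 in KO at E18.5 and at 28.2 and 13.7 CPM at D2.5 (log2 difference -1.03, SE 0.49, adjusted p = 0.677). Lrpprc, which stabilises mitochondrial messages, stood at 247 and 249 CPM at D2.5.

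**Figure D2:**
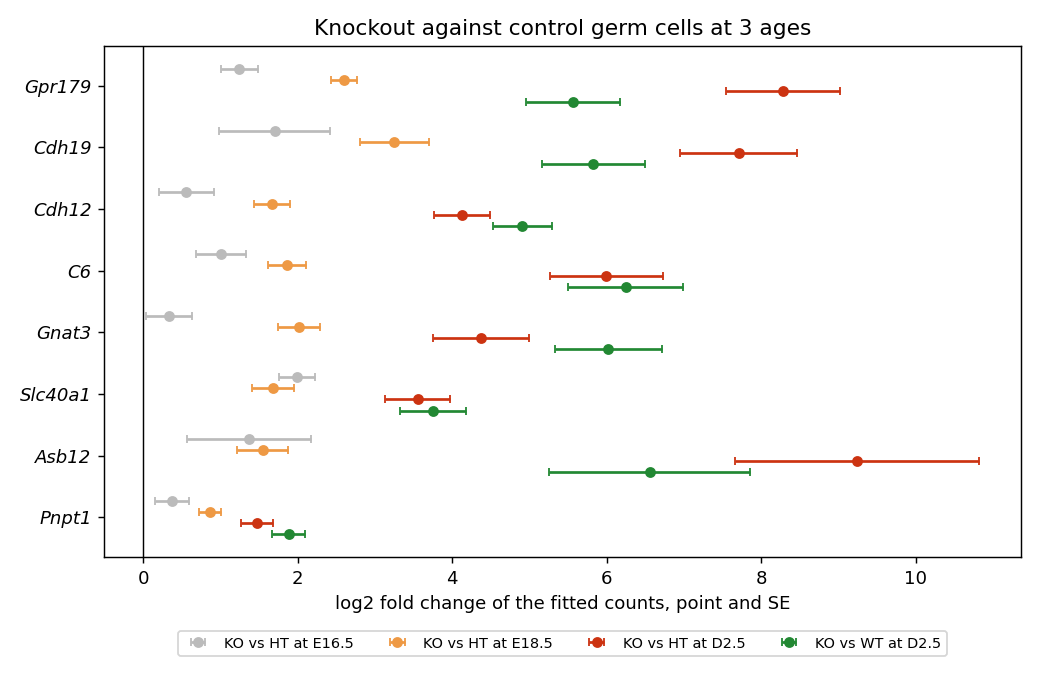
Fitted log2 fold change of each gene with its SE, for KO against HT at 3 ages and KO against WT at D2.5. Every point lies above 0, the D2.5 points lie to the right of the fetal ones in all 8 genes, and the wide bar of Asb12 at D2.5 rests on HT libraries with no count, so that point is not a bound.

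Read together, the 8 genes rose as chosen. In KO against HT at E18.5, 8 of 8 were called higher and did not overlap, with a median log2 difference of 1.77; 2.07% of all 18199 genes tested were called higher and 8.18% did not overlap. At D2.5, 8 of 8 were called higher against HT, where 0.146% of 14367 genes were, and 8 of 8 against WT, where 0.195% were. Their median log2 differences were 5.18 and 5.69, and 5.83% and 6.41% of all genes had KO libraries above all HT or all WT libraries. These counts follow from the choice. The KO libraries of D2.5 are shared by both comparisons.

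The 8 genes were not the only ones of their kind. With the same calls, 14 genes were higher in KO against HT at both E18.5 and D2.5, and 12 of these also against WT; the 8 are among both. The remaining 4, picked here after their values were seen, were Cyp4a12b, Samd9l, Slc15a2 and Slco1a5. Their log2 differences between KO and HT at D2.5 were 7.90, 6.91, 5.12 and 3.78. Cyp4a12b encodes a fatty acid hydroxylase, Slc15a2 a peptide transporter, Slco1a5 an organic anion transporter and Samd9l an interferon-induced protein. Just outside lay Dpp4, a membrane peptidase, and Cyp7b1, an oxysterol hydroxylase. They were higher against HT by 1.30 and 1.88 at E18.5 and by 3.15 and 5.51 at D2.5 on the log2 scale. Against WT they differed by 2.59 and 4.57 and missed the call.

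The E16.5 libraries were not used to choose the genes, so KO and HT could be tested there. The choice was, however, made with earlier results of these data known. In edgeR's quasi-likelihood test of 3 KO against 3 HT libraries, 0 of the 8 genes passed an adjusted p of 0.05 over the 16185 genes tested. In that comparison 0.00618% of genes were called at all, which is Tex15 itself, and 0% were called higher, and the biological coefficient of variation was 37.3% against 17.9% at E18.5. At an unadjusted p under 0.05 there were 4 of the 8, Gpr179, Cdh19, C6 and Slc40a1, all of them higher in KO, and 0.605% of all genes were so. The fitted difference was above 0 in 8 of 8, where 48.5% of all genes were, and the median was 1.13 beside -0.01 over all genes. The 4 other genes with the same calls at E18.5 and D2.5 were also all above 0 at E16.5, with a median of 0.68. In 1 of them, Cyp4a12b (1.65), KO lay above HT without overlap. Values of KO did not overlap those of HT in 5 of the 8, where 3.19% of all genes had KO above HT without overlap: Gpr179, Cdh19, Cdh12, C6 and Slc40a1.

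Slc40a1 had the widest gap at E16.5 relative to its error. Its log2 difference was 1.99 (SE 0.23, 95% interval 1.44 to 2.54), higher in all 3 KO libraries, with an unadjusted p of 5.84e-05 and an adjusted p of 0.472 in edgeR. In the same comparison all 11 macrophage and blood markers tested had fitted differences above 0, and their part was not tested. For Gpr179 the difference was 1.24 (SE 0.24, interval 0.68 to 1.80) with an unadjusted p of 0.00117 in edgeR, and for C6 it was 1.01 (SE 0.33, interval 0.24 to 1.78). Cdh19 stood at 1.70 (SE 0.72, interval 0.01 to 3.40), or 2.31 without HT replicate 1. The intervals of the other 4 genes held 0. They were -0.29 to 1.40 for Cdh12, -0.37 to 1.04 for Gnat3, -0.53 to 3.27 for Asb12 and -0.14 to 0.88 for Pnpt1. The fitted difference of Asb12, 1.37, became 2.26 without HT replicate 3. All adjusted p-values other than that of Slc40a1 were 0.976. DESeq2, run as an alternative on the same counts, called 2 of the 8: Slc40a1 (1.98, adjusted p = 3.90e-10) and Gpr179 (1.24, adjusted p = 0.0208). An edgeR fit with a replicate block called Slc40a1 as well. Over the 13 alternatives the adjusted p ran up to 1.00 for both genes, and their differences stayed within 1.84 to 2.15 and 1.09 to 1.44.

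**Figure D3:**
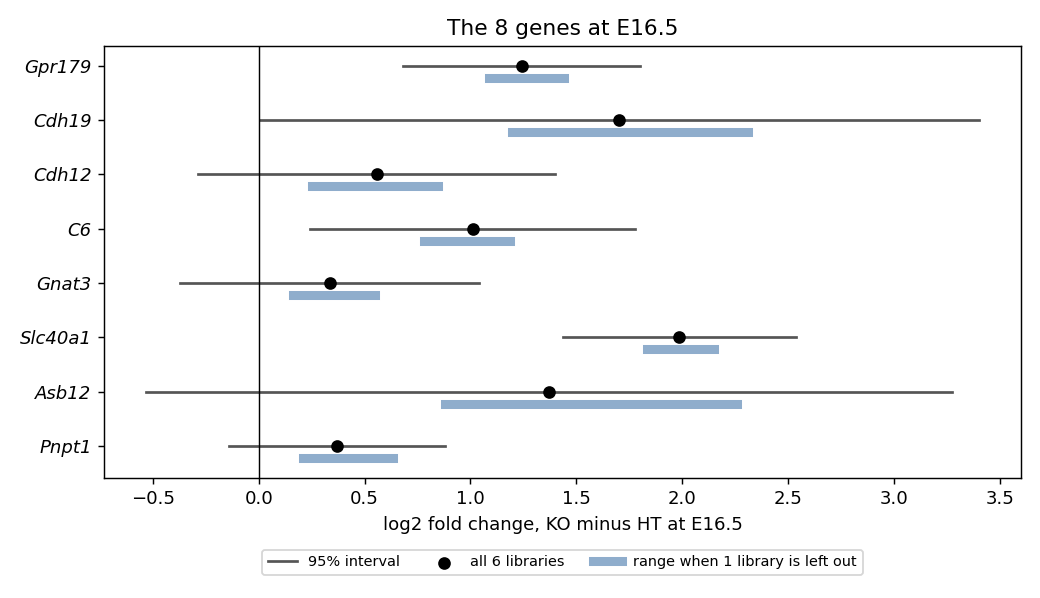
Fitted log2 fold change of KO against HT at E16.5 for each gene (points), with its 95% interval (lines) and the range of the point when 1 of the 6 libraries is left out in turn (bars). All points and bars lie above 0, and the intervals of Gpr179, Cdh19, C6 and Slc40a1 do not reach it.

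At D2.5 the 2 kinds of control could be set against each other. Tex15 itself was lower in HT than in WT (log2 difference -1.10 in edgeR), and 0.00696% of genes, which is Tex15 alone, were called in either direction. HT and WT libraries gave 0 of 8 members called. Since these libraries were the denominators of the choice, that count is no test of the 8 genes, and no p is given for them. No member had all HT libraries above all WT libraries, where 4.29% of all genes did. Gpr179 was the gene with lower HT values throughout, at 0 to 0.457 CPM against 0.736 to 2.12 in WT (log2 difference -2.72, SE 0.78, or -3.86 without HT replicate 2). Cdh19 differed by -1.88 (SE 0.80), or -0.13 without WT replicate 2. Gnat3 differed by 1.64 (SE 0.65), or -0.03 without HT replicate 3, and C6 by 0.25 (SE 0.77), with values from -0.75 without HT replicate 3 to 1.23 without WT replicate 1. Asb12 stood at 1 count or 0 in both, so it has no fold. Cdh12, Slc40a1 and Pnpt1 differed by 0.79, 0.20 and 0.41. For Slc40a1 the sign turned without HT replicate 1 (-0.34) or WT replicate 3 (-0.14). The knockout stood above both controls in each of these genes, which follows from the choice.

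Across the 7 groups, 7 of the genes shared the group with the highest level. Cdh19, Cdh12, C6, Gnat3, Slc40a1, Asb12 and Pnpt1 were highest in KO at D2.5, with no overlap with the group next in order. Gpr179 was highest in KO at E18.5, and its KO libraries of D2.5 and E16.5 overlapped. The group with the lowest mean varied: HT at D2.5 for Gpr179, Cdh19 and Asb12, WT at D2.5 for C6, Gnat3 and Slc40a1, and HT at E18.5 for Cdh12 and Pnpt1. Control groups overlapped the control groups next to them in that order in Cdh19, Cdh12, Gnat3 and Slc40a1. Groups farther apart could still be separate, as in Gnat3, where HT at E16.5 (5.69 to 9.79 CPM) lay above HT at E18.5 (1.74 to 3.13).

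Over the 21 libraries, which share depth and the contrast of genotype and age, Pearson's r between the log2 CPM of pairs of the 8 genes ran from 0.0617 to 0.928, with a median of 0.775 over 28 pairs. The choice of the genes used the E18.5 and D2.5 libraries, so high values follow in part from it. Cdh12 and Gnat3 were the closest pair and Gpr179 and Pnpt1 the most distant. Against the mean of the other 7, r was 0.921 for Cdh19 and 0.911 for Slc40a1, and 0.673 for Gpr179 and 0.563 for Pnpt1. Of 18783 other genes the 5 most alike in pattern to the mean of the 8 were Olfr1305 (r = 0.933), Spag16 (0.903), C630028M04Rik (0.885), Slco1a5 (0.851) and Gm1527 (0.847). Spag16, a protein of the sperm flagellum, stood at 8.76 and 12.8 CPM in HT and KO at E18.5 and at 10.1, 10.9 and 100.2 in WT, HT and KO at D2.5. Olfr1305, an olfactory receptor gene, had a mean of 4.03 CPM in KO at D2.5 and 0 in HT and WT. Slco1a5 stood at 7.86 CPM in HT and 108 in KO at D2.5.

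Among the genes next to the 8 on their chromosomes, 1 rose. The 8 lie on chromosomes 1, 5, 11, 15 and X, and the nearest gene on either side with a row in the table, by the RefSeq annotation of GRCm38.p6, gives 16 neighbours. Between KO and HT, 0 of 13 tested at E16.5, 1 of 16 at E18.5 and 0 of 13 at D2.5 passed the adjusted threshold in edgeR, with 0, 1 and 2 at an unadjusted p under 0.05. At E18.5, 2.07% of all genes were called higher, and 1.17%, 8.12% and 7.21% of all genes were past the unadjusted threshold at the 3 ages, so these counts lie near the background. The 1 that rose was Cd36, a fatty acid and lipoprotein receptor beside Gnat3 on chromosome 5, from 4.53 to 11.9 CPM at E18.5 (log2 difference 1.38, SE 0.23, adjusted p = 0.00319). At D2.5 Cd36 stood at 2.84 CPM in HT and 9.03 in KO (1.66, SE 1.37, adjusted p = 0.866). Gnai1, the G protein gene on the other side of Gnat3, stood at 26.8 and 28.2 CPM at E18.5. Macrophages also carry CD36, and their part in this rise, beside that of Mrc1 at the same age, was not tested. Amer1, a regulator of Wnt signalling beside Asb12 on chromosome X, stood at 13.02 CPM in HT and 35.3 in KO at D2.5 (1.44, SE 0.56, adjusted p = 0.538).

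The neighbours of both cadherins are themselves adhesion or sugar-modifying genes. Cdh12 lies on chromosome 15 between Cdh10 and Cdh18, which are also type II cadherins, and Cdh19 on chromosome 1 between Cdh7, another of that class, and Dsel, a dermatan sulfate epimerase. At D2.5, where Cdh12 went from 15.2 CPM in HT to 268 in KO, Cdh10 stood at 9.17 and 0.967 (log2 difference -3.21, adjusted p = 0.517) and Cdh18 at 2.67 and 3.58. In WT they stood at 2.22 and 0.0613, from which KO differed by -1.18 and 5.45 on the log2 scale (adjusted p = 0.897 and 0.311). Cdh7 stood at 4.85 and 2.45 CPM beside a Cdh19 level of 0.394 and 86.7. The median log2 difference of the neighbours was 0.04, 0.12 and 0.30 at the 3 ages between KO and HT, beside -0.01, -0.00 and -0.00 over all genes, and 0.86 between KO and WT at D2.5, with 0 of 13 called and 4 at an unadjusted p under 0.05, where 7.77% of all genes were.

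**Figure D4:**
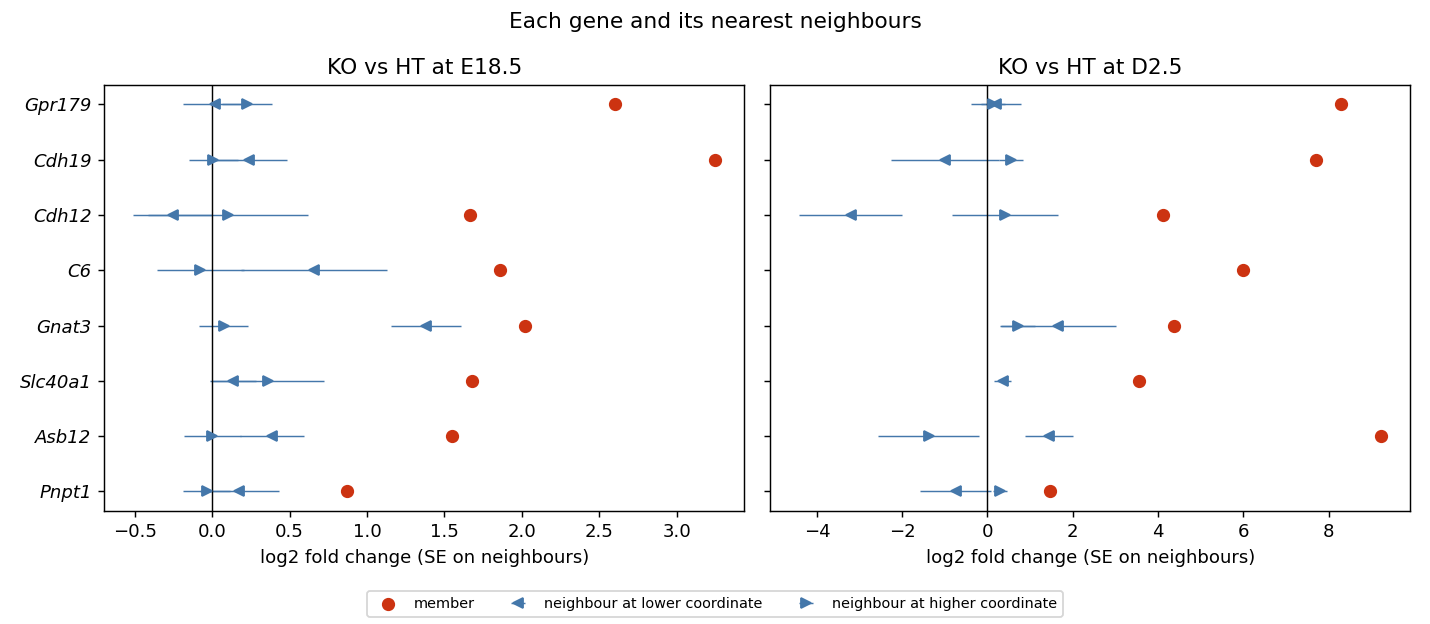
Log2 fold change of KO against HT at E18.5 (left) and D2.5 (right) for each gene (red) and its nearest neighbour at the lower and at the higher coordinate (blue, with SE). Neighbours lie between -0.26 and 1.38 at E18.5 and between -3.21 and 1.66 at D2.5; a neighbour with too few counts to be tested at D2.5 is left out, and the point of Asb12 at D2.5 rests on HT libraries with no count.

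Markers of the other testis cells were present at low levels in all groups. Summed Sertoli cell markers ran from 162 to 351 CPM in KO, 157 to 261 in HT and 127 to 226 in WT at D2.5, and stromal and peritubular markers from 361 to 869, 241 to 382 and 232 to 553, against 3696 to 8212 for germ cell markers over all libraries. At E18.5 stromal sums were 246 to 316 CPM in HT and 270 to 305 in KO. Of 11 endothelial markers tested at that age, 1 was called higher, where 2.07% of all genes were. At an unadjusted p under 0.05 there were 3, where 8.12% of all genes were. Fitted differences were above 0 in 4 of the 11, with a median of -0.02. The 1 called was Tek, an endothelial receptor, which rose from 25.6 to 46.8 CPM (0.87, adjusted p = 0.0166 in edgeR). Its call was lost on leaving out KO replicate 3, HT replicate 2 or HT replicate 3 (0.0954 to 0.116). None of the 12 Sertoli and 13 stromal markers tested passed the adjusted threshold between KO and HT at D2.5, with 2 and 4 at an unadjusted p under 0.05, where 7.21% of all genes were. Against WT it was 0 and 5 of the same markers, beside 7.77% of all genes. Fitted differences against HT were above 0 in 7 of the 12 Sertoli and 10 of the 13 stromal markers. Their medians were 0.49 and 0.55, beside -0.00 over all genes. Against WT the fitted differences were above 0 in 10 and 9 of these markers, with medians of 0.55 and 0.35 beside 0.01 over all genes. Of 8 Leydig cell markers tested against HT, 0 passed and 3 had an unadjusted p under 0.05. Leydig cell sums ran from 65.7 to 168 CPM in KO, 74.4 to 93.9 in HT and 80.7 to 112 in WT at D2.5, with Insl3 at 0 in all of them. In WT, HT and KO, Hsd17b3 stood at 32.9, 26.4 and 51.9 CPM and Hsd3b1 at 1.04, 0.115 and 11.5. Star stood at 24.5, 22.9 and 16.8 CPM in the same order. Against HT, 4 of the 8 fitted differences were above 0. The part of these cells in the 8 genes was not tested.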

How the data were processed

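RNA was extracted with a PicoPure kit, amplified and made into libraries with NuGEN Ovation kits, per the labels. The deposited tables hold whole-number counts of reads, with 24495 rows for genes and 1217 for repeats. Per the submitters' processing notes, STAR, Bowtie, featureCounts, edgeR and the mm9 build were used; the sources used here give no versions, roles or strand setting. Repeat names, 41.9% to 69.4% of counts, stayed out of library sizes.

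Counts were tested with edgeR 4.0.16 in R 4.3.3 (filterByExpr with a minimum count of 10 and total of 15, TMM factors, quasi-likelihood test, two-sided, Benjamini-Hochberg over all genes tested, threshold 0.05). Each fetal age had its own fit of 6 libraries and D2.5 one of 9. All 8 genes passed the filter at every age, a filter that can be met by the KO libraries alone. Levels are CPM with TMM factors over all 21 libraries. DESeq2 1.42.0 and, added after seeing the data, limma 3.58.1 (voom) were alternatives, beside RLE factors, other filters, library sizes with repeats, a replicate block and leaving out each library. Counting intervals cover counting error only. Scripts were tested on simulated data with 200 changed genes. Within each group, no 2 libraries were alike within sampling noise.

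The 8 genes, gene lists and markers were chosen with earlier results of these data known. Besides them the text names Tex15, the 5 genes most alike in pattern, nearest neighbours, and from each list the called genes or the most abundant; other names were chosen after their values were seen. Calhm3, Kiaa0391 and Rhox5 matched no row. Gene names, neighbours and promoters come from RefSeq (GRCm38.p6); as the files use mm9, no other coordinates are given. Whether a library is 1 animal is not stated, so p-values measure the spread between libraries, which may be partly technical.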

Additional observations from a re-analysis of the deposited data

How the results depend on the processing

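All fitted differences of the 8 genes between KO and control (104 at each fetal age and 128 each against HT and WT at D2.5) kept their sign under the alternatives run. Among the 8, calls changed for Asb12, Gpr179 and Slc40a1. Asb12 lost its call at E18.5 in 4 leave-one-out fits, against HT at D2.5 with limma-voom and without HT replicate 2, and against WT in 8 fits. Gpr179 and Slc40a1 gained a call at E16.5 with DESeq2, and Slc40a1 also with the replicate block. Members called ranged from 7 to 8 at E18.5 and at D2.5 against HT when 1 library was left out. At E18.5 C8a, Mrc1 and Cd36 kept their calls in all 13 alternatives. The cause of these changes was not tested.

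With DESeq2, 6 genes were called at E16.5 (1 in edgeR), 2 of them members; at D2.5 126 against HT (22 in edgeR), 123 against WT (31) and 2 between HT and WT (1). With no filter on low counts, D2.5 gave 109, 110 and 4, and with the stricter filter 40 and 58 against HT and WT. Leaving out 1 library gave 197 to 392 genes at E18.5 (389 with all; 197 without HT replicate 2, 237 without KO replicate 3, 251 without HT replicate 3), 14 to 24 against HT at D2.5 (14 without HT replicate 2), 19 to 40 against WT (19 without WT replicate 3) and 1 to 2 between HT and WT (2 without WT replicate 1). Between HT and WT the sign turned for Slc40a1 (-0.34 without HT replicate 1, -0.14 without WT replicate 3), C6 (-0.75 without HT replicate 3, -0.17 without WT replicate 2) and Gnat3 (-0.032 without HT replicate 3); the leave-one-out ranges were -0.34 to 0.55 for Slc40a1, -0.75 to 1.23 for C6 and -0.03 to 2.18 for Gnat3.

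Same-numbered libraries of KO and HT had correlations of 0.52, -0.04 and 0.70 at E16.5 and 0.08 to 0.20 at E18.5. Differently numbered libraries had -0.66 to 0.46 at E16.5. These values do not settle whether the numbers pair libraries, and the main fit did not pair them. With the replicate block, 2 genes were called at E16.5, of which 1 was a member, Slc40a1 (2.00, adjusted p = 0.0329 in edgeR), 531 at E18.5, and 24 and 30 at D2.5 against HT and WT; Asb12 against WT was 6.57 and no longer called.

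Depth limits Asb12, Gpr179, Cdh19 and C6 most, whose D2.5 control libraries held few or no counts.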

Other observations

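Plcxd3, the neighbour of C6 at the lower coordinate, had too few counts at D2.5 to be tested. Its KO libraries held 2.16, 10.6 and 0.185 CPM, its WT libraries 0.529, 0.184 and 0.514, and its HT libraries 0.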
